A study of Rattus norvegicus with 26 samples.

Results

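The genes described here were 10 genes of the Lefty, Nodal and activin pathway: *Lefty2*, *Lefty1*, *Nodal*, *Tdgf1*, *Inhba*, *Inhbb*, *Fst*, *Acvr1b*, *Acvr2a* and *Acvr2b*. They were selected on their gene names in the array annotation, and where a gene had several probes the brightest one was used, chosen by its mean log2 intensity over all 26 arrays. Of the 10 genes, 8 had a probe. No probe carried the name *Lefty1* or *Tdgf1*, and these 2 genes were left out. The array holds probes for 35287 gene names in all, and 24442 probes passed the filter on dim signals, the 8 probes described here among them. Probe choice used the mean level only, and it used no difference between days, lines or cell types.

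RNA was labeled with Cy3 and hybridized on Whole Rat Genome arrays with 1 colour. Both lines, Cl19 and 3c3, are single clones of rat multipotent adult progenitor cells (rMAPCs), cells from bone marrow of female Fischer rats that express *Oct4*. The Cl19 donor was 3 weeks old, and the 3c3 donor was at embryonic day 18. Cells of both lines were cultured with TGF-β1 and PDGF-BB, which direct them towards smooth muscle cells (SMCs), and RNA was taken on d0, d2, d4 and d6 on 3 arrays per line and day. Commercial rat aortic RNA, described as that of primary SMCs, was hybridized on 2 arrays. All cells of these cultures were pooled in each RNA sample, so a lower level in fewer cells and a lower level per cell cannot be told apart.

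Nodal and the activins are secreted ligands of the TGF-β family. Activins are dimers of the β subunits that *Inhba* and *Inhbb* encode. These ligands bind activin type II receptors (*Acvr2a*, *Acvr2b*), which recruit type I receptors such as ALK4 (*Acvr1b*), and the receptors phosphorylate Smad2 and Smad3. Nodal also needs a co-receptor of the EGF-CFC family (*Tdgf1*, also called Cripto, or *Cfc1*). The Lefty proteins are secreted antagonists of Nodal and are themselves induced by it, and *Nodal* can induce its own transcription through FoxH1 and the Smads. Follistatin (*Fst*) binds and neutralizes activin. In the early embryo this pathway patterns mesoderm and endoderm and sets the left-right axis.

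Each level rests on 1 probe of 60 bases. The probes of the genes that the results turn on are shown here as the array lists them, 5′ to 3′ and in lower case, because a level is that of the stretch of transcript the probe matches and other transcripts of the gene could be missed. Positions are those of the array annotation on the rat assembly rn4, which lists each probe with a transcript, so all lie in exons.
*Lefty2* (chr13:96626239-96626298, plus strand): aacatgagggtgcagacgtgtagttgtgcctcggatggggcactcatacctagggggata
*Nodal* (chr20:29553374-29553433, plus strand): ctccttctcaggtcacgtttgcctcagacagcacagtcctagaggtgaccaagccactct
*Inhba* (chr17:57244604-57244663, minus strand): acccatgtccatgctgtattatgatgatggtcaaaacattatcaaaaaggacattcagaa
*Fst* (chr2:46543227-46543286, minus strand): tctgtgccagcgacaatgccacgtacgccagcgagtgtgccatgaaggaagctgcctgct
*Acvr2b* (chr8:124392440-124392499, plus strand): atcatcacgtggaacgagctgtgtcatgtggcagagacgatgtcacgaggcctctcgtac

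The files give no sequence of *Lefty1*, so whether the *Lefty2* probe also matches its transcript was not tested. The *Acvr1b* probe lies at chr7:139958156-139958215 and the *Acvr2a* probe at chr3:29779945-29780004, both on the plus strand. *Inhbb* has 3 probes on chromosome 13, which are taken up with that gene.

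Between 43.2% and 61.4% of gene features were well above background on each array, and none was saturated. Each line and replicate number had a slide of its own that held d0, d2, d4 and d6, and Cl19, 3c3 and the primary SMC RNA were each scanned on a separate day. The array labelled Cl19 d2 replicate 1 stood apart: over the tested probes its root mean square distance to the other Cl19 d2 arrays was 0.92 and 0.88 log2 units, but 0.38 to 0.54 to the 3 d2 arrays of 3c3. Changes that involve Cl19 d2 are therefore given with and without it where the text gives their size. Negative control spots were brighter on the slide of 3c3 replicate 3, with a median net signal of 9.13 to 20.9 against 0.14 to 5.0 on the other arrays. The rMAPC markers *Pou5f1* (Oct4), *Gata4*, *Gata6*, *Sox7*, *Sox17*, *Foxa2* and *Hnf4a* were well above background on every d0 array of both lines. On d6 the mean of *Pou5f1* was 1.13 in Cl19, with 1 of 3 arrays well above background, and 7.42 in 3c3, with all 3. *Gata6*, *Sox17*, *Foxa2* and *Hnf4a*, 4 of the 7, were also well above background on both arrays of the primary SMC RNA. Of the 5 smooth muscle markers with a probe, 4 were so on every rMAPC array (*Myocd* was not), and all 5 in the primary SMC RNA. Of 6 visceral endoderm or epithelial markers with a probe, including *Afp* and *Ttr*, 5 were well above background on all d0 arrays of each line and 6 on all arrays of each later day. In Cl19 the median level of these markers went from 6.86 at d0 to 11.9 at d6, and in 3c3 from 6.88 to 12.9. Their part in the results below was not tested. *Ptprc*, *Cd34* and *Itgam*, markers of blood cells, were well above background on at most 1 of the 3 arrays of any rMAPC group, and *Cd68* on all arrays. In the primary SMC RNA *Ptprc*, at a mean of 5.11, was well above background on both arrays, and *Cd34* and *Itgam* on neither. Of 5 fibroblast or mesenchymal markers, all 5 were well above background on both arrays of the primary SMC RNA and 2 or 3 on all arrays of each rMAPC group. Of these, *Col1a1* went from a mean of 6.00 on d0 to 13.26 on d6 in Cl19 and from 6.01 to 9.53 in 3c3. Of 5 endothelial markers, 4 were well above background on all d0 arrays of each line, and on d6 1 was in Cl19 and 2 in 3c3. The median level of the endothelial list was 5.80 at d0 and 2.08 at d6 in Cl19, and 4.88 and 3.71 in 3c3. The part of these lists in the results was not tested either.

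In both lines *Lefty2*, *Nodal* and *Fst* rose from d0 to d6. In Cl19 *Acvr1b* and *Acvr2b* rose as well, and in 3c3 *Inhba* did. *Inhbb* and *Acvr2a*, by their brightest probes, did not pass the test in either line, and no member fell. All values are log2 intensities after quantile normalization, errors of levels are SDs over 3 arrays, and errors of changes are standard errors (SE) of the limma fit over all 26 arrays, with p-values adjusted by Benjamini and Hochberg over all 24442 probes and called below 0.05. An F-test over the 4 days called 5 of the 8 members in Cl19 (*Lefty2*, *Nodal*, *Fst*, *Acvr1b* and *Acvr2b*), where 54.3% of all probes were called, and 5 in 3c3 (*Lefty2*, *Nodal*, *Inhba*, *Fst* and *Acvr1b*), where 50% were. From d0 to d6, 5 members rose in Cl19 against 22% of all probes, and 4 rose in 3c3 against 19.7%. None fell, against 30.3% of all probes in Cl19 and 28.6% in 3c3, and none did at an unadjusted p below 0.05 either. The median change from d0 to d6 over the 8 members was 1.44 in Cl19 and 1.46 in 3c3, and over all tested probes it was -0.20 and -0.21. Of all probes called, 42.1% were higher in Cl19 and 40.7% in 3c3. Without normalization between arrays these shares were 55.7% and 56.4%, with 6771 probes higher in Cl19 and 6167 in 3c3. In that setting 5 members rose in each line and none fell. The genes were taken up with earlier results of these data known, so these counts describe the list and are no test of it.

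**Figure D1:**
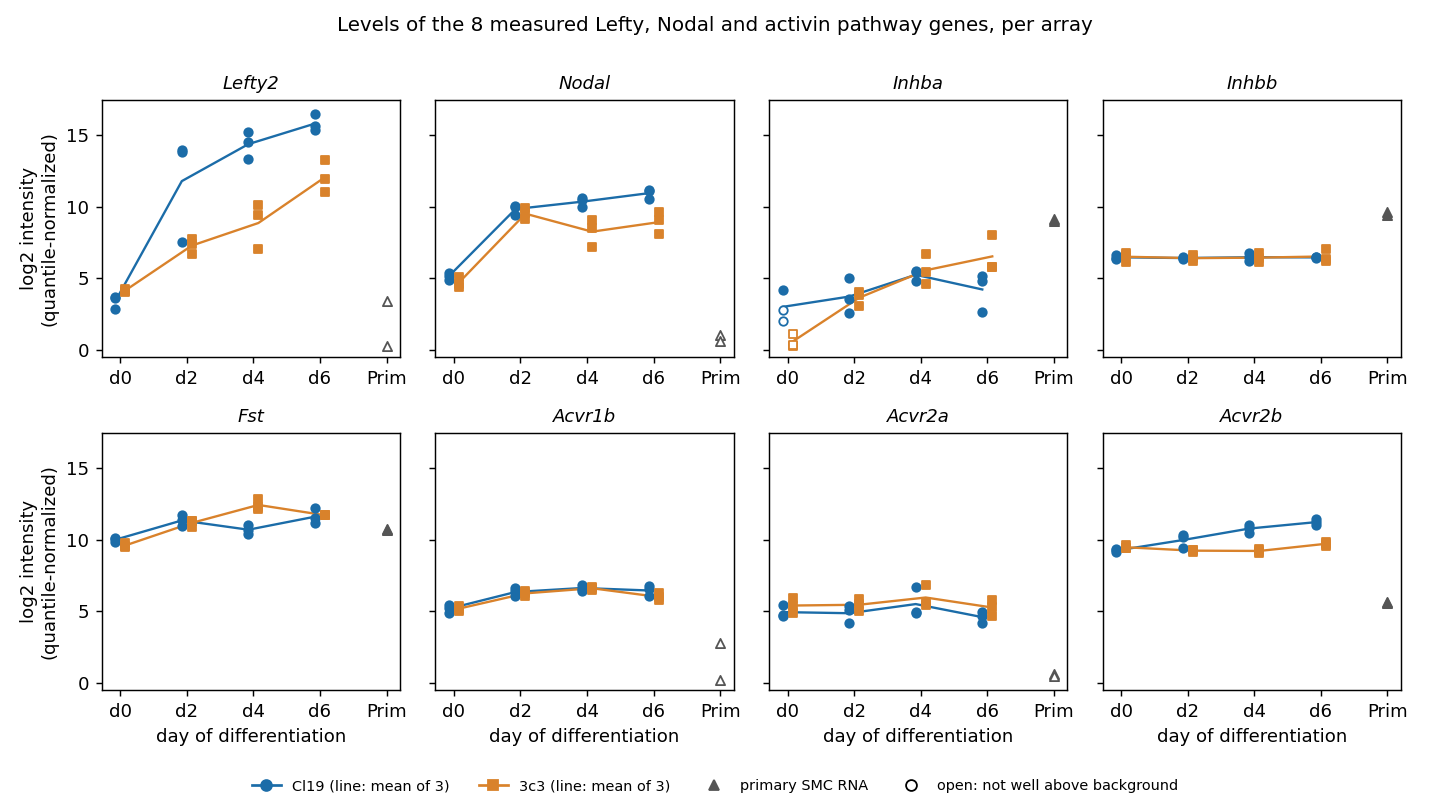
Quantile-normalized log2 intensity (vertical axis) of the 8 measured genes on each array by day of differentiation (horizontal axis), with Cl19 as circles, 3c3 as squares, primary SMC RNA (Prim) as triangles, lines through the means of 3 arrays, and open symbols where the probe was not well above background. *Lefty2* climbed from below 4.3 on d0 to above 11 on every d6 array, *Nodal* had made most of its rise by d2, and *Inhbb* stayed between 6.17 and 7.03 on all rMAPC arrays.

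The antagonist *Lefty2* changed most of the 8 from d0 to d6 in both lines. In Cl19 its level was 3.65, 2.88 and 3.67 on the 3 d0 arrays, 7.55, 14.01 and 13.87 on d2, 13.39, 15.28 and 14.53 on d4, and 15.63, 15.39 and 16.48 on d6. The 3c3 levels were 4.24, 4.16 and 4.09 on d0, 7.75, 6.72 and 7.43 on d2, 10.15, 7.06 and 9.43 on d4, and 13.26, 11.06 and 11.93 on d6. The d0 arrays lay below all later arrays in each line, and every d6 array of Cl19 lay above every d6 array of 3c3. From d0 to d6 *Lefty2* rose by 12.43 (SE 1.23, adjusted p = 7.9e-08 from limma) in Cl19, the highest change of all 24442 tested probes, and by 7.92 (SE 1.23, adjusted p = 2.91e-05 from limma) in 3c3, the 23rd highest. On a linear scale these were 5532-fold and 242-fold, and within slides the change was 11.98, 12.51 and 12.81 in Cl19 and 9.01, 6.91 and 7.84 in 3c3. With normexp background correction, which shrinks differences near the background, the rises were 9.58 and 5.72.

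Whether the time course of *Lefty2* differed between the lines depended on 1 array and on the model. By d2 it had risen by 8.41 (SE 1.23, adjusted p = 4.79e-05 from limma) in Cl19. In 3c3 its d2 change of 3.14 (SE 1.23) missed the threshold (adjusted p = 0.0839 from limma), although the 3 within-slide differences were 3.51, 2.56 and 3.34, and it passed with the slide as a block (adjusted p = 0.046) and without the Cl19 d2 array of replicate 1 (adjusted p = 0.00666), which lowered the spread shared by all groups. Between d2 and d6 it rose by 4.78 (adjusted p = 0.00662 from limma) in 3c3 and by 4.02 (adjusted p = 0.0155 from limma) in Cl19. The Cl19 d2 array of replicate 1, at 7.55, fell within the range of the 3c3 d2 arrays. Without it the Cl19 d2 level was 13.94, the d2 change was 10.54 (SE 0.86), and the step from d2 to d6 was 1.89 and no longer passed (adjusted p = 0.123 from limma).
Tested directly, the difference between the lines in the d2 change of *Lefty2* was 5.27 (SE 1.74, Cl19 minus 3c3, adjusted p = 0.313 from limma) with that array and 7.40 (SE 1.16, adjusted p = 0.000949) without it. That array was singled out for its likeness to the 3c3 d2 arrays. Leaving it out therefore favours a larger difference between the lines on d2, and the latter value is no independent test. The d6 changes differed by 4.51 (SE 1.74, adjusted p = 0.0841 from limma). This difference passed with the slide as a block (adjusted p = 0.0477) and without the Cl19 d2 array of replicate 1 (adjusted p = 0.00573), which lowered the SE to 1.09.

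The ligand *Nodal* rose early in both lines. In Cl19 its level was 5.19, 4.89 and 5.41 on d0, 9.46, 10.09 and 10.02 on d2, 9.97, 10.52 and 10.62 on d4, and 11.14, 10.53 and 11.22 on d6. In 3c3 it was 5.12, 4.37 and 4.64 on d0, 9.90, 9.14 and 9.55 on d2, 9.07, 7.22 and 8.53 on d4, and 9.66, 8.09 and 9.07 on d6. No d0 array of either line overlapped with a later array, and the d6 arrays of the lines did not overlap with each other. By d2 *Nodal* was 25.9-fold higher in Cl19, a change of 4.69 (SE 0.41, adjusted p = 1.04e-07 from limma; 4.89 without the array of replicate 1), and 28.3-fold higher in 3c3, a change of 4.82 (SE 0.41, adjusted p = 8.83e-08 from limma). The d2 changes differed between the lines by -0.13 (SE 0.58, adjusted p = 1 from limma), and by 0.07 without that array (adjusted p = 1).
After d2 *Nodal* rose further in Cl19, by 1.11 (SE 0.41, adjusted p = 0.0424 from limma), but without the d2 array of replicate 1 this step was 0.91 and did not pass (adjusted p = 0.166). In 3c3 its level on d6 was below that on d2 within each of the 3 slides, by 0.24, 1.05 and 0.48, a change of -0.59 (SE 0.41) that did not pass (adjusted p = 0.315 from limma). From d0 to d6 *Nodal* rose by 5.80 (SE 0.41, adjusted p = 1e-09 from limma) in Cl19 and by 4.23 (SE 0.41, adjusted p = 1.05e-07 from limma) in 3c3. The difference of 1.58 (SE 0.58) between these changes missed the threshold (adjusted p = 0.0685 from limma) and passed with the slide as a block (adjusted p = 0.0031). With normexp background correction the d6 rises were 4.15 and 2.47, and their difference of 1.68 passed (adjusted p = 0.0113).

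*Inhba*, which encodes the subunit of activin A, was near the background on d0. In Cl19 its level was 2.81, 4.19 and 2.04 on d0, where the probe was well above background on 1 of 3 arrays, and 3.57, 5.04 and 2.59 on d2, 5.53, 4.82 and 5.43 on d4, and 4.81, 5.20 and 2.69 on d6. In 3c3 it was 0.27, 1.15 and 0.33 on d0, not well above background on any array, and 4.03, 3.82 and 3.10 on d2, 4.61, 6.69 and 5.42 on d4, and 5.77, 8.03 and 5.84 on d6. The d0 and d6 arrays overlapped in Cl19 and were apart in 3c3. In 3c3 *Inhba* rose from d0 to d6 by at least 14.7-fold (adjusted p = 2.53e-06 from limma); this bound, like those below, sets the bright group's mean against the higher, on each array, of the dim probe's own level and the lowest level of a probe well above background. In Cl19 its change of 1.22 (SE 0.74) did not pass (adjusted p = 0.183 from limma), and it passed without the d6 array of replicate 3 (1.99, adjusted p = 0.0354). Its d4 change in Cl19, 2.25 (SE 0.74), was below 0.05 on its own (adjusted p = 0.0179 from limma), while the F-test over the 4 days was not (adjusted p = 0.0792). It had risen in 3c3 by d2 by at least 1.98-fold (adjusted p = 0.00619 from limma, and 0.0501 without the slide of replicate 3) and rose again from d2 to d6 by 2.89 (SE 0.74, adjusted p = 0.00675 from limma). The d6 changes of *Inhba* differed between the lines by -4.74 (SE 1.05, Cl19 minus 3c3, adjusted p = 0.00318 from limma). Because the d0 levels of both lines were mostly not well above background, the size of this difference is uncertain: with dim values set to the lowest level well above background it was -2.69 and did not pass (adjusted p = 0.0847), and with normexp background correction it was -1.23 (adjusted p = 0.0321).

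*Inhbb* encodes the subunit of activin B. Its brightest probe, which spans an intron (chr13:32173603-32176234, minus strand), was flat: it ranged from 6.21 to 6.78 over the 12 Cl19 arrays and from 6.17 to 7.03 over the 12 of 3c3. Its change from d0 to d6 was -0.01 (SE 0.21, adjusted p = 0.974 from limma) in Cl19 and 0.03 (SE 0.21, adjusted p = 0.934 from limma) in 3c3. The other probes for *Inhbb* did not follow it. The second (chr13:32171058-32171117) was well above background on 5 of 24 rMAPC arrays, 3 of them Cl19 d6 at 3.70, 4.35 and 2.86, and in the primary SMC RNA it was at 9.39 and 9.37. For this probe the F-test over the 4 days passed in Cl19 (adjusted p = 0.00122 from limma) and not in 3c3 (adjusted p = 0.254), and in Cl19 its level was higher on d6 than on d2 (adjusted p = 0.00112), where it was not well above background on any array. The third (chr13:32173421-32173480) was well above background on 3 of all 26 arrays and was not tested. The brightest and the third probe, which start at positions 557 and 739 of the same listed transcript, are shown because they disagree so far in level.
*Inhbb*, probe at position 557: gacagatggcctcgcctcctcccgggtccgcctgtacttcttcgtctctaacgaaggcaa
*Inhbb*, probe at position 739: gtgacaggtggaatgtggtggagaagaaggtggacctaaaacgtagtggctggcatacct

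**Figure D2:**
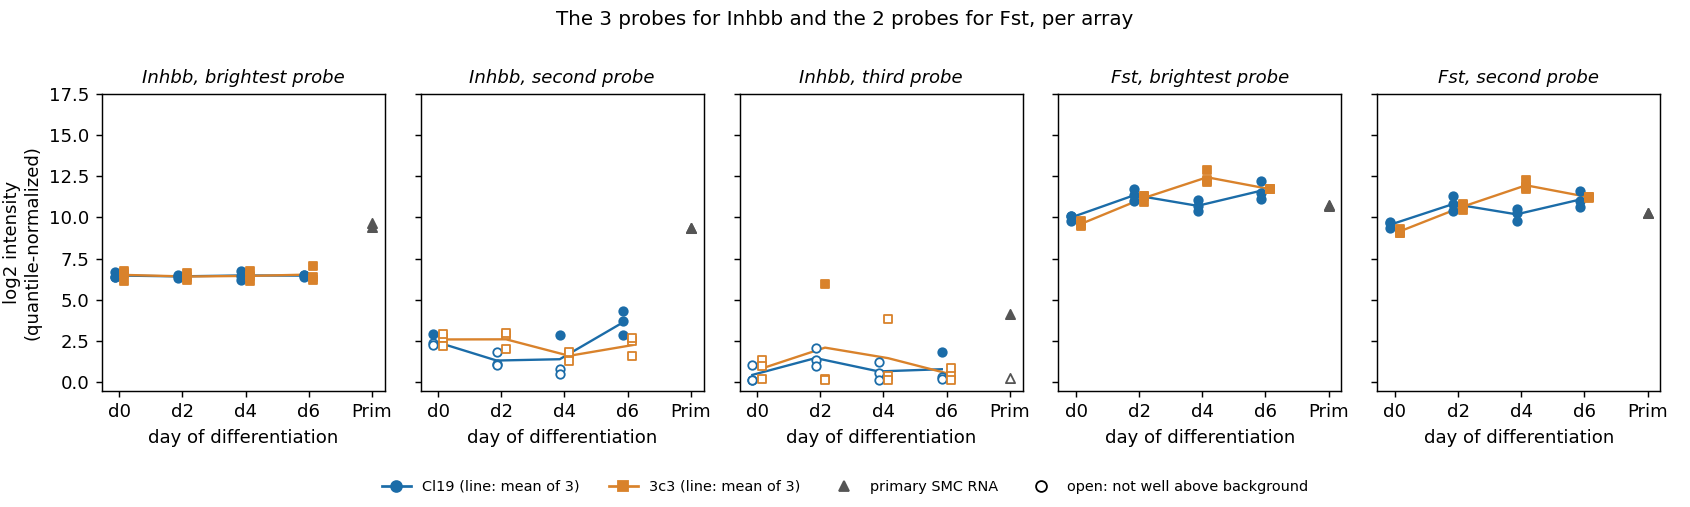
Quantile-normalized log2 intensity (vertical axis) of the 3 probes for *Inhbb* and the 2 probes for *Fst* on each array by day (horizontal axis), with symbols, lines and open points as in the plot of levels. The brightest *Inhbb* probe was flat over the rMAPC arrays, and the other *Inhbb* probes were mostly not well above background there. The 2 *Fst* probes followed each other, with a peak on d4 in 3c3 above 11.7 in both.

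Follistatin (*Fst*) was well above background throughout. In Cl19 its level was 10.08, 9.81 and 10.12 on d0, 11.72, 10.99 and 11.36 on d2, 10.69, 10.38 and 11.05 on d4, and 11.15, 12.20 and 11.50 on d6. The levels in 3c3 were 9.48, 9.53 and 9.80 on d0, 10.93, 11.31 and 11.31 on d2, 12.16, 12.87 and 12.29 on d4, and 11.72, 11.70 and 11.73 on d6. All d0 arrays lay below all later arrays of the same line. From d0 to d6 *Fst* rose 3.06-fold in Cl19, a change of 1.61 (SE 0.25, adjusted p = 1.73e-05 from limma), and 4.32-fold in 3c3, a change of 2.11 (SE 0.25, adjusted p = 1.13e-06 from limma). The second probe gave 1.52 and 2.07. The d6 changes differed by -0.50 (SE 0.35, adjusted p = 0.412 from limma). On d4 the 3 arrays of 3c3 lay above the 3 of Cl19, and within slides *Fst* then fell in 3c3 by 0.44, 1.16 and 0.56 to d6 while it went up in Cl19 by 0.46, 1.82 and 0.45; the difference between the lines on d4 was not tested.

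The type I receptor gene *Acvr1b* went up moderately. In Cl19 its level was 5.21, 4.88 and 5.45 on d0, 6.39, 6.07 and 6.60 on d2, 6.45, 6.59 and 6.85 on d4, and 6.56, 6.08 and 6.74 on d6. In 3c3 it was 5.02, 5.19 and 5.35 on d0, 6.27, 6.10 and 6.40 on d2, 6.48, 6.71 and 6.64 on d4, and 5.98, 5.76 and 6.27 on d6. The d0 arrays lay below all others in each line. From d0 to d6 it rose by 1.28 (SE 0.38, adjusted p = 0.00863 from limma) in Cl19, and its change of 0.82 (SE 0.38) in 3c3 missed the threshold (adjusted p = 0.0872 from limma), although the F-test over the 4 days passed (adjusted p = 0.0235). Of 18 alternatives run for it, it did pass under 5: 75th percentile scaling (0.91, adjusted p = 0.00687), normexp background correction (0.35, adjusted p = 0.00675), no normalization between arrays (1.22, adjusted p = 0.00121), a floor for dim values (adjusted p = 0.00189) and a fit per line (adjusted p = 0.00243). Among those where it did not pass were the slide as a block (adjusted p = 0.0882 from limma) and the fit without the slide of 3c3 replicate 3 (0.77, adjusted p = 0.263 from limma). The difference between the lines was 0.46 (SE 0.54, adjusted p = 0.691 from limma).

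The 2 type II receptor genes went different ways. *Acvr2b* in Cl19 was at 9.34, 9.14 and 9.27 on d0, 9.42, 10.16 and 10.37 on d2, 10.50, 10.86 and 11.01 on d4, and 11.05, 11.22 and 11.44 on d6, so that d0, d4 and d6 did not overlap. In 3c3 it was at 9.4, 9.42 and 9.61 on d0, 9.29, 9.11 and 9.32 on d2, 9.24, 9.06 and 9.36 on d4, and 9.87, 9.59 and 9.70 on d6, within a range of less than 1 log2 unit. *Acvr2b* rose from d0 to d6 3.97-fold in Cl19, a change of 1.99 (SE 0.19, adjusted p = 5.49e-08 from limma), and its change in 3c3 was 0.24 (SE 0.19, adjusted p = 0.312 from limma). The difference between the lines was 1.74 (SE 0.27, adjusted p = 0.000125 from limma), and it passed in all 23 alternatives run for it, at 1.60 to 1.84. By d2 *Acvr2b* had risen in Cl19 by 0.74 (SE 0.19, adjusted p = 0.00817 from limma), or by 1.02 without the array of replicate 1 (adjusted p = 0.000106), and its change in 3c3 was -0.24 (SE 0.19, adjusted p = 0.461 from limma). The difference of 0.97 (SE 0.27) in the d2 change did not pass (adjusted p = 0.176 from limma), but it did with the slide as a block (adjusted p = 0.0428) and, at 1.25, without the Cl19 d2 array of replicate 1 (adjusted p = 0.00221). As for *Lefty2*, leaving out that array favours a larger difference on d2. From d2 to d6 *Acvr2b* rose in Cl19 by 1.25 (SE 0.19, adjusted p = 4.64e-05 from limma), or by 0.97 without that array (adjusted p = 0.000195). In 3c3 this step was 0.48 (SE 0.19, adjusted p = 0.0683 from limma), and it passed with the slide as a block (adjusted p = 0.0159) and without that Cl19 array (adjusted p = 0.0171).
*Acvr2a* ranged from 4.15 to 6.68 in Cl19 and from 4.69 to 6.81 in 3c3, with the d0 and d6 arrays overlapping in both. Its change from d0 to d6 was -0.35 (SE 0.47, adjusted p = 0.565 from limma) in Cl19 and -0.14 (SE 0.47, adjusted p = 0.832 from limma) in 3c3. A second probe for *Acvr2a* was well above background on 2 of 26 arrays and was not tested.

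**Figure D3:**
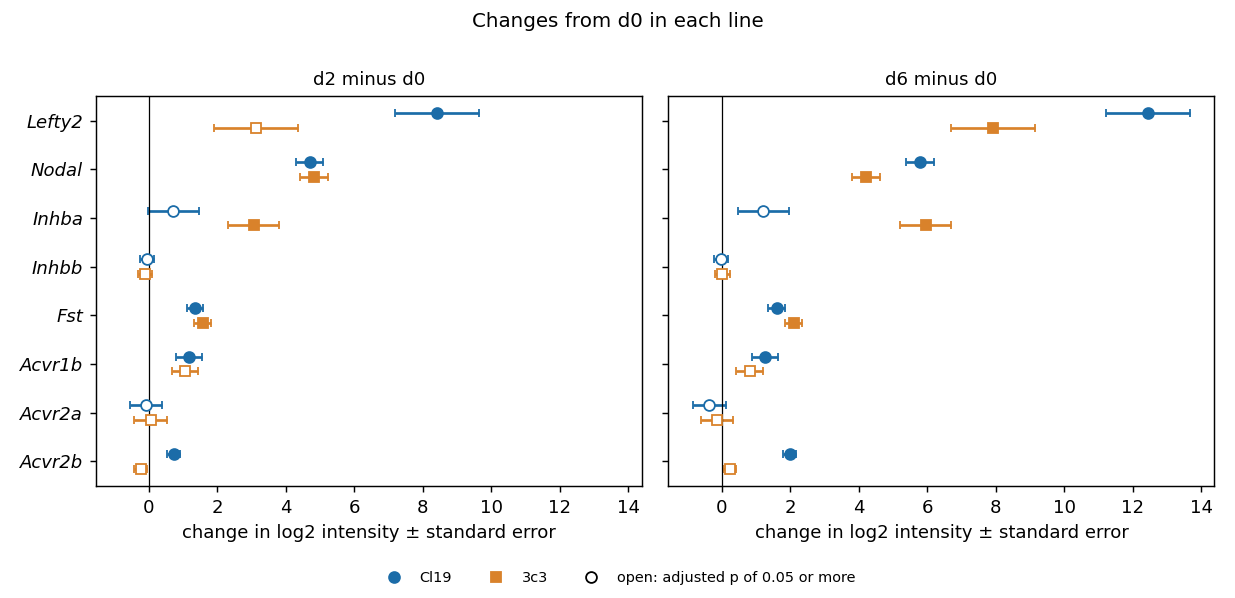
Change in log2 intensity from d0 to d2 (left) and from d0 to d6 (right) of the 8 genes in Cl19 (circles) and 3c3 (squares), with bars of 1 standard error from the limma fit and open symbols where the adjusted p was 0.05 or more. *Lefty2* had the largest changes in both lines on d6, the Cl19 and 3c3 values of *Nodal* on d2 nearly coincide, and *Inhba* and *Acvr2b* separate the lines in opposite directions.

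Over the shorter intervals the counts ran as follows. From d0 to d2, 5 members rose in Cl19 (*Lefty2*, *Nodal*, *Fst*, *Acvr1b* and *Acvr2b*) against 11.2% of all probes, and 3 rose in 3c3 (*Nodal*, *Inhba* and *Fst*) against 9.8%. None fell, against 11.5% of all probes in Cl19 and 9.27% in 3c3. From d2 to d6, 3 members rose in Cl19 (*Lefty2*, *Nodal* and *Acvr2b*) against 15.2% of all probes, and 2 in 3c3 (*Lefty2* and *Inhba*) against 12%, and none fell against 18.1% and 15.5%. The d2 change in Cl19 was called for 3 members without the d2 array of replicate 3, and that of *Acvr1b* was lost without the d2 array of replicate 1 (adjusted p = 0.0647). Without the latter array the step from d2 to d6 was called for *Acvr2b* alone in Cl19, and without the d6 array of replicate 3 it was called for 1 member. In 3c3 this step was called for 1 member without the d6 array of replicate 2, and for 0 without the slide of replicate 3, where the adjusted p was 0.0578 for *Lefty2* and 0.0509 for *Inhba*. Changes to d6 differed between the lines for 2 members, *Inhba* and *Acvr2b*, against 17.4% of all probes, and for 4 with the slide as a block, with *Lefty2* and *Nodal* added. Changes to d2 differed for 0 members, against 0.323% of all probes, and for 3 at an unadjusted p below 0.05 (*Lefty2*, *Inhba* and *Acvr2b*). The shares of all probes with the block, at the unadjusted cut and with arrays left out are not given. The numbers 4 and 3 therefore have no background beside them and cannot be read against 17.4% or 0.323%.

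In the primary SMC RNA the pattern was another. *Inhba* was at 9.04 and 9.19 and *Inhbb*, by its brightest probe, at 9.64 and 9.44 on the 2 arrays, above every rMAPC array of either line. *Acvr2b* was at 5.61 and 5.64, below every rMAPC array. *Fst* was at 10.69 and 10.76, between the d0 and the d6 arrays of both lines. *Lefty2*, *Nodal*, *Acvr1b* and *Acvr2a* were not well above background on either array. All 8 members differed from d6 of each line in the limma fit. The 2 activin subunit genes were higher in the primary SMC RNA, against 32.8% of all probes compared with Cl19 d6 and 33.4% with 3c3 d6, and the other 6 were lower, against 38.6% and 38.1%. *Inhba* was higher by 4.88 than in Cl19 d6 (SE 0.83, adjusted p = 3.13e-05 from limma) and by 2.57 than in 3c3 d6 (SE 0.83, adjusted p = 0.00973 from limma). The latter difference did not pass without the slide of 3c3 replicate 3 (2.21, adjusted p = 0.0541), without Prim replicate 2 (2.49, adjusted p = 0.0519) or with no normalization between arrays (0.20, adjusted p = 0.838). *Inhbb* was 8.35-fold higher than in Cl19 d6 and 7.96-fold higher than in 3c3 d6 by its brightest probe. By the second probe it was 53.6-fold higher than in Cl19 d6, and as the mean over its tested probes the differences were 4.40 and 5.06. The third *Inhbb* probe, which was not tested, did not show this. It was at 0.29 and 4.15 in the primary SMC RNA, well above background only on the latter array, and at 5.98 on 3c3 d2 replicate 2.
As bounds, *Lefty2* was at least 4272-fold higher in Cl19 d6 and 317-fold higher in 3c3 d6 than in the primary SMC RNA, and *Nodal* at least 146-fold and 35.9-fold. *Acvr1b* was at least 6.43-fold and 4.69-fold higher, and *Acvr2a* at least 1.76-fold and 2.81-fold. For *Acvr2a* the difference from Cl19 d6 did not pass with normexp background correction (adjusted p = 0.0696) or with dim values set to the lowest level well above background (-0.82, adjusted p = 0.171). *Fst* was lower in the primary SMC RNA by 0.89 than in Cl19 d6 (change of -0.89, SE 0.28, adjusted p = 0.00731 from limma) and by 0.99 than in 3c3 d6 (change of -0.99, SE 0.28, adjusted p = 0.00341 from limma). The primary SMC RNA was on a slide and scan day of its own, so cell source and slide cannot be told apart. Before normalization its arrays were dimmer, with a 75th percentile of 5.36 and 5.47 log2 units against 7.13 to 8.0 on the rMAPC arrays. Without normalization the median difference of all probes from d6 was -2.17 for Cl19 and -2.09 for 3c3, the differences of *Inhbb* were 0.58 and 0.62, and those of *Fst* were -3.00 and -3.13.

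Other genes of the pathway were taken from a list of 43, of which 37 had a probe and 30 were tested. From d0 to d6, 20 of the 30 rose and 5 fell in Cl19, where 22% of all probes rose and 30.3% fell, and 17 rose and 4 fell in 3c3, where 19.7% and 28.6% did. Their median change was 1.60 in Cl19 and 1.01 in 3c3, against -0.20 and -0.21 over all probes. Among co-receptors and antagonists, *Cfc1*, the EGF-CFC co-receptor related to *Tdgf1*, rose by 6.59 in Cl19 (adjusted p = 1.11e-07 from limma) and by 3.58 in 3c3 (adjusted p = 0.000201 from limma). *Fstl3*, a follistatin relative that also binds activin, rose by 1.55 and 0.86. *Igsf1*, described as an inhibin-binding membrane protein, changed by -6.67 in Cl19 and -1.39 in 3c3. Both changes passed.
Of the 2 further receptor genes, *Acvr1* (ALK2) rose by 2.17 and 1.60, and *Acvr1c* (ALK7) was not well above background on any array. *Furin*, a convertase that cleaves Nodal precursors, rose by 0.79 and 0.85. Of 9 tested signal transducers and nuclear partners, 5 rose and 1 fell in Cl19 (22% and 30.3% of all probes), and 3 rose and 1 fell in 3c3 (19.7% and 28.6%). *Foxh1*, the DNA-binding partner of Smad2 in Nodal signaling, rose by 5.62 in Cl19 (adjusted p = 6.16e-09 from limma) and by 2.46 in 3c3 (adjusted p = 0.000191 from limma). The feedback inhibitors *Skil*, by 2.16 and 1.16, and *Smad7*, by 1.65 and 1.55, rose in both lines. *Smad2* fell in both, with changes of -1.1 and -0.89.

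Of 13 genes listed as targets of the pathway in the early embryo, 11 were tested. In Cl19, 9 rose and 2 fell, against 22% and 30.3% of all probes, and in 3c3, 8 rose and 2 fell, against 19.7% and 28.6%. *Otx2*, a homeobox gene of the anterior embryo, rose by 7.67 in Cl19 (adjusted p = 1.18e-06 from limma) and by 5.0 in 3c3 (adjusted p = 0.000206 from limma). *Fgf8*, a growth factor of the primitive streak, rose by 6.16 and 5.87, and *Lhx1*, a homeobox gene of the early mesendoderm, by 5.71 in Cl19 and at least 59.2-fold in 3c3. *Mixl1*, a primitive streak homeobox gene, rose at least 101-fold in Cl19 and at least 4.80-fold in 3c3. Other listed targets did not share this course. *Gsc* rose by 7.68 in Cl19 (adjusted p = 4.28e-06 from limma), and its change of 2.03 in 3c3 did not pass (adjusted p = 0.117 from limma). *T* (Brachyury) was not well above background on any array. The genes that fell in both lines were the endoderm factors *Sox17*, with changes of -4.12 and -1.84, and *Gata6*, with -3.31 and -1.47; both also mark undifferentiated rMAPCs. In the primary SMC RNA *Otx2*, *Fgf8*, *Lhx1*, *Mixl1*, *Cfc1* and *Foxh1* were not well above background on either array.

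**Figure D4:**
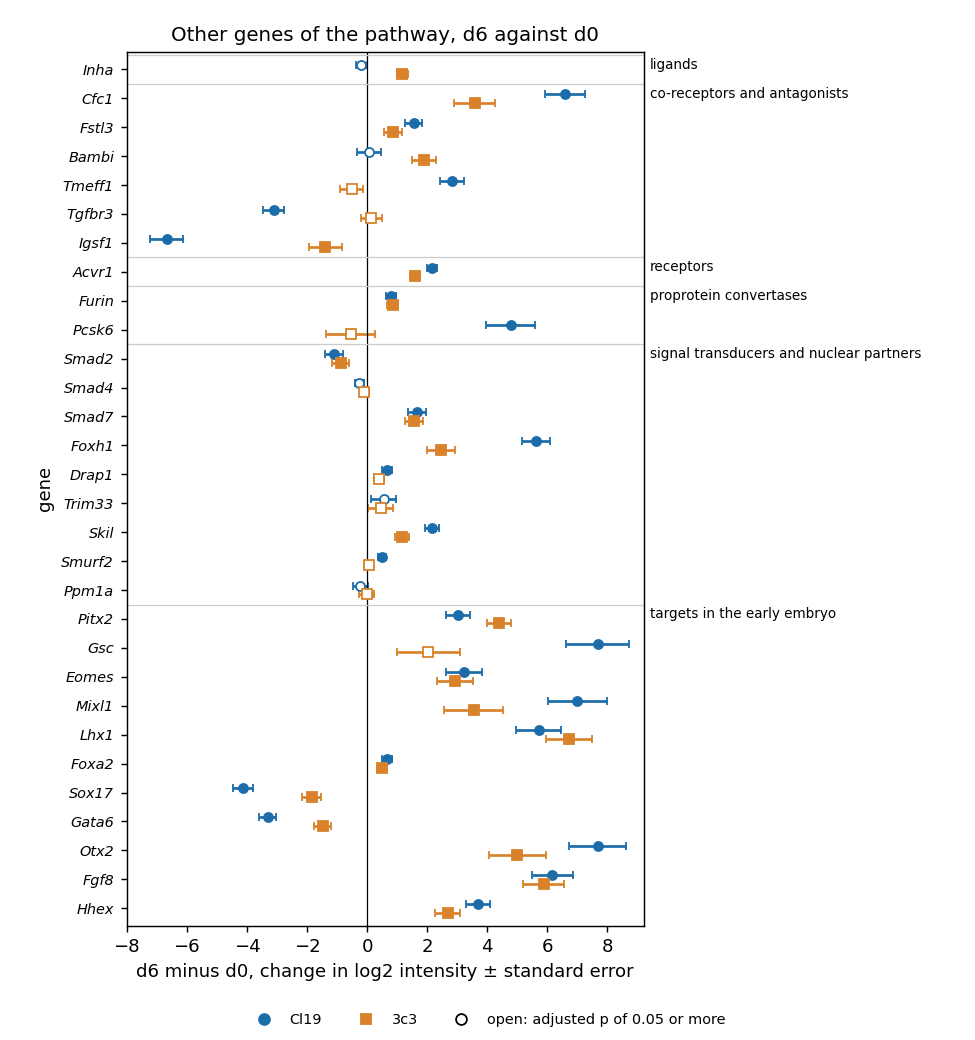
Change in log2 intensity from d0 to d6 (horizontal axis, with bars of 1 standard error) of the 30 tested genes of the pathway list that are not among the 10 (vertical axis, grouped by role), in Cl19 (circles) and 3c3 (squares), with open symbols where the adjusted p was 0.05 or more. The embryonic targets hold the largest rises, *Sox17*, *Gata6*, *Smad2* and *Igsf1* lie left of 0 in both lines, and *Pcsk6* and *Tmeff1* rose in Cl19 and did not pass in 3c3 (the difference was not tested).

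Among 10724 other named genes, each by its brightest tested probe, those whose levels followed *Lefty2* most closely over the 24 rMAPC arrays were *Nptx2* (r = 0.994), *Dcdc2* (r = 0.989) and *Plekhg2* (r = 0.989). *Nptx2* rose from d0 to d6 by 9.59 in Cl19 and 6.07 in 3c3, and *Dcdc2* by 11.38 and 8.03. The genes closest to *Nodal* were *Rps6ka1* (r = 0.982), *Pcsk4* (r = 0.977) and *Mapk3* (r = 0.973), with rises in Cl19 of 1.40, 3.66 and 1.71. These are descriptions over arrays that share lines, days and slides.

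RefSeq promoter windows (assembly GRCr8, 250 bases before to 50 after the start of a gene) were at hand for 6 of the 10 genes: *Nodal*, *Inhba*, *Inhbb*, *Acvr1b*, *Acvr2a* and *Acvr2b*. They were searched on both strands for AATNCACA, the core bound by FoxH1, and for CAGAC, a Smad box; neither motif can contain the other. None of the 6 windows held AATNCACA, which 3.78% of all 33469 windows held. At so low a share, absence from 6 windows cannot speak to control by FoxH1, and bases outside the windows were not searched. CAGAC was found once in the window of *Nodal*, starting 50 bases before the gene's start, and once in that of *Inhba*, across its start, and 50.1% of all windows held it. The bases before the start of *Nodal* are shown because *Nodal* rose early in both lines, with the CAGAC match in capitals.
*Nodal*, chr20:29911008-29911257 (GRCr8, plus strand): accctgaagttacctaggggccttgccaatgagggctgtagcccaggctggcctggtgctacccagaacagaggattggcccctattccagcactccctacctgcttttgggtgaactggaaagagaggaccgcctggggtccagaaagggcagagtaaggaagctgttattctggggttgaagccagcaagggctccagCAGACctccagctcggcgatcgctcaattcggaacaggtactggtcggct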

How the data were processed

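RNA of 26 samples in 9 groups was measured, each on 1 array. The authors quantified the arrays with Agilent Feature Extraction (version 10.1.1.1, per the submitters' processing notes), and the deposited scanner files give the Cy3 intensity of 45018 features, of which 43379 are gene features. The deposited series table holds log2 values equal to the log2 of that processed intensity, with no normalization between arrays. As in the study's methods, log2 intensities were quantile-normalized over the 26 arrays. Outlier-flagged features were left out, features of a probe were averaged (41012 probes), and probes that were well above background throughout 1 or more groups were tested (24442). One limma fit over the 9 groups gave all contrasts (limma 3.58.1, R 4.3.3), with Benjamini-Hochberg adjustment over all probes. Scripts were tested on simulated data. Array signals give no read depth, so the number of arrays limits the precision.

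The 10 genes, the pathway list and the markers were chosen with earlier results of these data known. Named were all 10 genes and, of each role in the pathway list, at most 4 genes called from d0 to d6 in both lines, by mean change, and the 3 genes that correlated best with *Lefty2* and with *Nodal*. *Sox17*, *Gata6*, *Gsc*, *T*, *Pcsk6*, *Tmeff1* and *Acvr1c* were named after their values were seen. The study's methods call the 3 arrays of a group biological replicates, and the labels do not say whether they or the 2 arrays of primary SMC RNA came from separate cultures, so p-values measure the spread between these samples, which may be technical. The study's methods name another supplier of the primary SMC RNA than the labels.

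Replicate number and slide were the same thing within a line per the file headers. Deviations from group means correlated above 0.1 in all 18 same-slide pairs of 3c3 and in 16 of 18 of Cl19. All d0 to d2 and d0 to d6 pairs were among them. Whether these shared deviations came from paired cultures or from the slide itself was not tested. The main fit left the slide out. With the slide as a block, the d6 changes of *Lefty2* (adjusted p = 0.0477 from limma) and *Nodal* (adjusted p = 0.0031 from limma) also differed between the lines. These calls therefore depend on the model. Alternatives were other scalings, background corrections, filters, variance models and tests, the slide as a block, and leaving out arrays.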

Additional observations from a re-analysis of the deposited data

Results flagged for a closer look

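Of all probes, 17.4% were called for a different d6 change between the lines, so the count below does not set the list apart. For 2 of the 8 genes the change from d0 to d6 differed between the lines. The difference (Cl19 minus 3c3) was tested directly in the main limma fit, which left the slide out. With the slide as a block, *Lefty2* and *Nodal* passed as well. In the main fit the difference was -4.74 (SE 1.05, adjusted p = 0.00318) for *Inhba*, whose level rose on all 3 slides of each line. Within slides the rises of *Inhba* were 5.50, 6.88 and 5.50 in 3c3 and 2.00, 1.01 and 0.65 in Cl19. With dim values set to the lowest level well above background the difference for *Inhba* was -2.69 and did not pass (adjusted p = 0.0847), so -4.74 is a fitted value and not a measured size. The difference was 1.74 (SE 0.27, adjusted p = 0.000125) for *Acvr2b*, whose level also rose on all 3 slides of each line. Within slides the rises of *Acvr2b* were 1.71, 2.08 and 2.17 in Cl19 and 0.47, 0.17 and 0.09 in 3c3. The range for *Inhba* over all alternatives was -5.23 to -1.23, with d0 levels mostly not well above background, and that for *Acvr2b* was 1.60 to 1.84. Each slide held d0 and d6 of its line, but each line was scanned on a separate day. Line and scan day therefore cannot be told apart in these differences.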

How the results depend on the processing

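The rises of *Lefty2*, *Nodal* and *Fst* from d0 to d6 kept their direction and passed in both lines under every alternative of the limma fit run for each gene. Normexp background correction moved the rise of *Nodal* in 3c3 to 2.47 and that of *Inhba* there to 1.5. With the replicate block (slide), the members whose d6 change differed between the lines numbered 4 and those whose d2 change did numbered 1, with no share of all probes given for the block. The F-test over the 4 days called 6 members in each line with the block, and other calls that it changed are given with the results; it changed no call of a change from d0 to d6 within a line. With a floor for dim values the former number was 1. The d2 change in 3c3 was called for 5 members in the deposited log2 table and 5 in a fit per line. There 64.9% of the probes called by d2 in Cl19 and 78.1% in 3c3 were higher, against 49.3% and 51.4% after quantile normalization. The d2 to d6 change in 3c3 was called for 0 members without the slide of 3c3 replicate 3 (limma). The methods' area method called 2 members over time in Cl19 (*Lefty2* and *Nodal*) and 3 in 3c3 (the same 2 and *Inhba*), and *Fst*, *Acvr1b* and *Acvr2b* in neither line. The methods' t-test called 5 members from d0 to d6 in each line, and 5 in each after Benjamini-Hochberg. No share of all probes is given for the area method, the t-test, the floor, the fit per line or the fits with arrays left out. Their counts therefore have no background beside them.

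Leaving out 1 array at a time gave 3 to 5 members changed by d2 in Cl19, 1 to 3 from d2 to d6 in each line, and 0 to 2 whose d2 change differed between the lines. The 3 came without Cl19 d2 replicate 3, and the 1 without Cl19 d2 replicate 1, Cl19 d6 replicate 3 or 3c3 d6 replicate 2. The 2 came without Cl19 d2 replicate 1, the array singled out for its likeness to 3c3. The shares of all probes in these fits are not given, so the ranges describe the members alone.

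By their brightest probes, changes of *Inhbb* and *Acvr2a* from d0 to d6 passed in neither line, and their sign varied. The d6 change of *Inhbb* in Cl19 was 0.064 under 75th percentile scaling, 0.39 in the deposited table, 0.018 with features averaged first and 0.56 as the mean over probes, and -0.062 to 0.080 with 1 array left out. In 3c3 it was -0.0028 under normexp, -0.10 without the slide of replicate 3, -0.16 over probes and -0.22 to 0.18 with 1 array left out. Its difference between the lines was 0.0051 in the deposited table, 0.09 without that slide, 0.72 over probes and -0.19 to 0.21 with 1 array left out. The d6 change of *Acvr2a* was 0.13 in Cl19 and 0.24 in 3c3 in the deposited table, 0.037 in 3c3 under normexp, and -0.42 to 0.15 in 3c3 and -0.50 to 0.067 for the difference between the lines with 1 array left out. The causes were not tested.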
